A study of Mus musculus with 18 samples.

Results

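Activated Treg and Treg-like cells are the spleen CD4 T cells that the authors' deposited annotation calls Treg_activated, 769 of the 26652 cells in the series (2.89%). They were taken by that label alone, and they make up 38.3% of the 2008 cells annotated as regulatory T cells (Treg). The cells they are set beside are 1000 resting Treg, 4897 activated conventional CD4 T cells (Tconv) and 19747 resting Tconv. The study asks what becomes of Treg when the Foxp3 gene is disrupted, in mice that lack its product in every cell and in mice where cells with and without it live side by side.

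All cells were TCRβ+ CD4+ cells sorted from the spleens of male B6 mice, and their RNA was counted with 10x Genomics single-cell kits as unique molecular identifiers (UMIs). The ∆Foxp3 mice carry the allele Foxp3DeltaEGFPiCre, in which EGFP and a Cre recombinase are inserted and no Foxp3 protein is made, together with a ROSA-YFP reporter, while WT mice carry Foxp3-IRES-GFP, in which GFP is read from the intact gene. With the V2 kit, 2 samples of ∆Foxp3 mice aged 3 weeks were set against 2 of WT mice aged 3 weeks. With the V3 kit, 2 samples of ∆Foxp3 mice aged 3 weeks were set against 2 of WT mice aged 9 weeks and crossed to CD45.1, so that age and genotype cannot be told apart in that pair. The chimeras, also run with the V3 kit, were 3 irradiated CD45.2 recipients given marrow of which 50% was ∆Foxp3 (CD45.1/2) and 50% was WT (Foxp3-IRES-GFP, CD45.1). The recipients were 7 weeks old at transplant and were sampled 10 weeks later, at an age that the labels give as 16 weeks, which is less than the sum of the other 2 ages, and their ∆Foxp3 and WT cells were separated by CD45.1 and CD45.2, giving 3 samples of each. GFP+ Treg sorted from WT mice aged 9 weeks gave 2 more samples, which serve here as a point of comparison for levels. ∆Foxp3 males develop a fatal inflammatory disease, whereas the WT cells of a chimera supply working Treg to the host. The ∆Foxp3 cells of the mice and those of the chimeras therefore came from hosts in different states.

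Treg hold back immune responses and depend on the transcription factor Foxp3 for this function. Once stimulated through their antigen receptor they become activated, or effector, Treg: they lose receptors that keep cells circulating through lymphoid organs, such as CCR7, and gain CTLA-4, ICOS and receptors of the tumour necrosis factor (TNF) family such as 4-1BB, OX40 and GITR. Cells in which the Foxp3 locus is read but no protein is made are often called Treg-like or Treg wannabes.

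The V3 samples were told apart by hashtag antibodies, whose oligos are shown because they tell which samples share an animal. In the chimeras, 1 hashtag marks both genotypes of 1 recipient mouse, which were loaded in different channels. In the V3 mice, 1 hashtag marks both samples of a group, which therefore may be 1 mouse loaded in 2 channels. The labels name no animals for the V2 samples either, so in both sets of mice the p-values may measure technical spread between samples.
Hash2, chimera mouse 1: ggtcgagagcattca
Hash3, chimera mouse 2: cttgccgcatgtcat
Hash4, chimera mouse 3: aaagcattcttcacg
Hash5, V3 ∆Foxp3 mice: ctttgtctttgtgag
Hash6, V3 WT mice: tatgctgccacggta

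Each sample held 955097 to 14887898 UMIs in all, and the activated Treg of a sample that entered the tests held 73997 to 388293 UMIs. The median activated Treg had 2409 to 3264 UMIs in V2 samples and 3790 to 8331 in V3 kit samples. Levels are given as CPM, the UMIs of a gene per 1000000 UMIs summed over the activated Treg of a sample. A count of 1 UMI in the smallest sum is worth 13.5 CPM, so levels of that order rest on single molecules. Counting error alone gives a chi-square per degree of freedom of 1 between replicates, and these sums gave 1.21 to 1.57. Of the 769 cells, 6 shared a barcode with another cell of the series and 0 with one another. The V3 ∆Foxp3 samples stood apart from the others: their resting Tconv carried GFP and genes of activated cells. A GFP UMI was in 33.7% ± 2.85 of these cells (SD, n = 2). V2 ∆Foxp3 resting Tconv carried less GFP, with 27.1 and 46.4 CPM, against 4.47 and 5.38 CPM in V2 WT mice. The source of this RNA in resting Tconv was not tested. Levels in resting Tconv are given beside the V3 results where they were high.

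Activated Treg were a larger share of CD4 cells in V2 ∆Foxp3 mice than in WT mice, and a smaller share among ∆Foxp3 than among WT cells of the chimeras. In the V2 samples they were 3.16% and 5.69% of ∆Foxp3 CD4 cells (104 and 82 cells), against 1.06% and 1.10% of WT CD4 cells (56 and 43 cells). In the chimeras they were 1.17%, 3.08% and 1.01% of ∆Foxp3 CD4 cells (25, 28 and 21 cells), against 4.95%, 4.22% and 4.29% of WT CD4 cells (37, 78 and 36 cells). No sample of one genotype reached the range of the other in either set. In the V3 mice, 4.40% and 4.38% of ∆Foxp3 CD4 cells were activated Treg (44 and 41 cells), against 1.60% and 4.55% of WT CD4 cells (13 and 16 cells), and the groups overlapped. The 2 WT samples of that pair differ by more than counting error, with exact binomial 95% intervals of 0.853% to 2.72% and 2.62% to 7.28%.

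**Figure D1:**
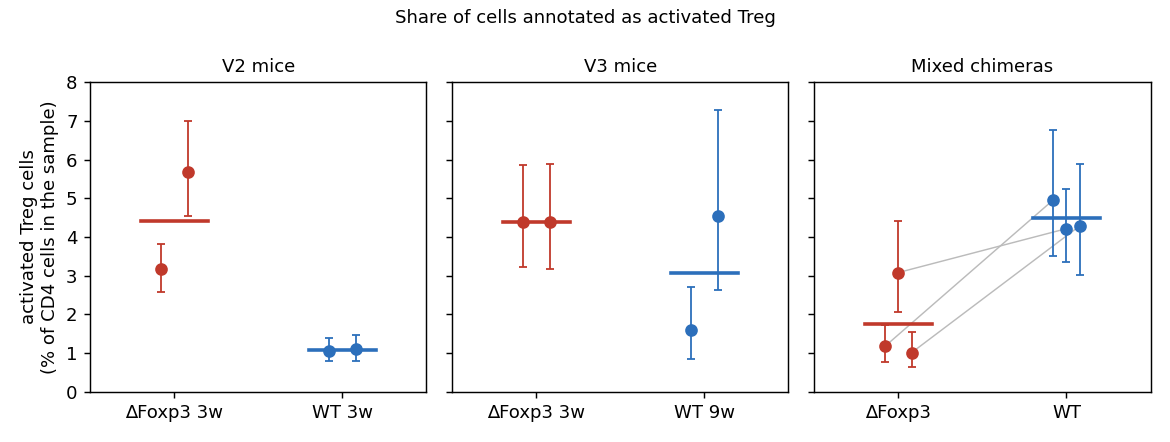
Activated Treg as a percent of the CD4 cells of each sample (points, with exact binomial 95% intervals that cover counting error only), with bars at the group means and ∆Foxp3 left of WT in V2 mice, V3 mice and chimeras. Grey lines join the 2 genotypes of a chimera mouse, and in each of the 3 mice the ∆Foxp3 point lies below the WT point.

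The mean share in V2 was 4.42% ± 1.79 in ∆Foxp3 mice and 1.08% ± 0.0248 in WT mice (SD, n = 2 samples each), a log2 ratio of 2.02 with a standard error (SE) of 0.50 (edgeR quasi-likelihood test on numbers of cells, adjusted p = 0.00425). In the chimeras it was 1.75% ± 1.15 in ∆Foxp3 cells and 4.49% ± 0.406 in WT cells (SD, n = 3 mice), a log2 ratio of -1.48 (SE 0.44, edgeR adjusted p = 0.0470). Within a chimera mouse the ∆Foxp3 share was 0.236, 0.731 and 0.236 times the WT share. The V3 mice had 4.39% ± 0.0108 in ∆Foxp3 mice and 3.07% ± 2.08 in WT mice (SD, n = 2 samples each), and the log2 ratio of 0.68 (SE 0.58) did not pass (edgeR adjusted p = 0.400). By exact permutation over samples, two-sided, p was 0.333 in V2, 1 in V3 and 0.1 in the chimeras, where 0.333 and 0.1 are the smallest values that these numbers of samples allow when taken as independent. The permutation and the edgeR test above left out that the 2 genotypes of a chimera mouse form a pair. With the mouse as a block the chimera log2 ratio was -1.49 (edgeR adjusted p = 0.000993). The 2 genotypes of each chimera mouse were in different channels, so each pair also differs by channel. The part of the channel in these shares was not tested. The V2 call did not hold without WT replicate A (log2 ratio 1.99) or B (2.04). The chimera call of the fit with no block was lost without ∆Foxp3 replicate 1 (-1.26) or 3 (-1.19), or without WT replicate 1 (-1.40), 2 (-1.52) or 3 (-1.49). Without WT replicate 1 the V3 ratio was -0.051. Other clusters also rose in V2, among them follicular helper T cells (2.39, edgeR adjusted p = 0.00264) and 1 cluster of activated Tconv (2.04, edgeR adjusted p = 0.0143). The NKT cluster did not (-0.63, edgeR adjusted p = 0.258), and resting Treg fell (-1.30, edgeR adjusted p = 0.0285). In the chimeras resting Treg fell as well (-1.75, edgeR adjusted p = 0.000141).

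Among Treg-annotated cells alone, the activated cells were 63.8% ± 12.4 in V2 ∆Foxp3 mice and 20.2% ± 0.139 in V2 WT mice (SD, n = 2 each). They were 64.9% ± 3.94 in V3 ∆Foxp3 mice and 45.2% ± 14.2 in V3 WT mice (SD, n = 2 each). In the chimeras they were 52.4% ± 9.93 of ∆Foxp3 and 49.2% ± 1.34 of WT Treg-annotated cells (SD, n = 3 each), which differs by less than the spread between mice.

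The label was set beside 5 markers. These were Foxp3 itself, Ikzf2 (encoding the Treg transcription factor Helios), Ctla4 (the inhibitory receptor CTLA-4), Itgae (the integrin CD103) and Tnfrsf9 (the co-stimulatory receptor 4-1BB). Because clusters were built from the same genes, the differences between clusters are descriptions with no test. The median log2 difference from activated Tconv was 1.73 for Ikzf2 (higher in 14 of 14 samples), 2.26 for Ctla4, 3.41 for Tnfrsf9 (12 of 14), 1.77 for Foxp3 (12 of 14) and 1.61 for Itgae (12 of 14). Over resting Treg it was 1.62 for Ctla4 (higher in 16 of 16 samples), 1.51 for Tnfrsf9 (13 of 16), 0.97 for Ikzf2 (15 of 16) and 0.97 for Itgae (12 of 16). Foxp3 itself was at much the same level in both kinds of Treg, with a median log2 difference of 0.35 and 9 of 16 samples higher. The markers therefore fit the label when all samples are read together, but this is no independent check of the label. Tnfrsf9 was low in the activated Treg of ∆Foxp3 mice, as described below.

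**Figure D2:**
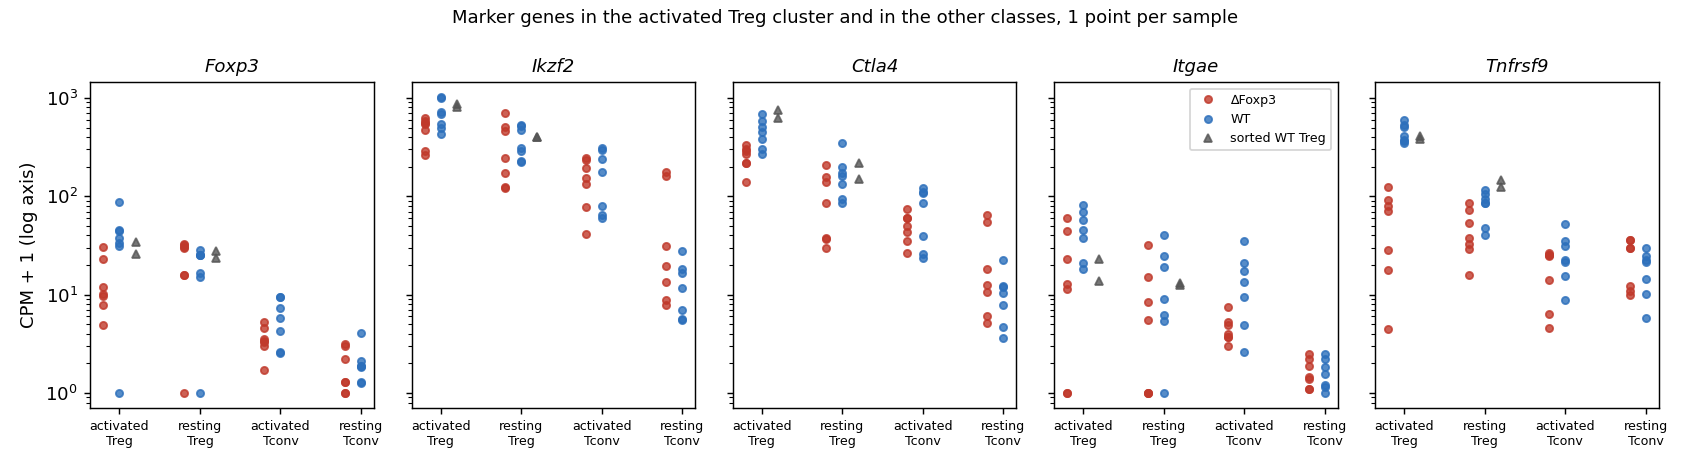
Levels of the 5 markers on a log axis (CPM plus 1) in activated Treg, resting Treg, activated Tconv and resting Tconv, 1 point per sample (red ∆Foxp3, blue WT, grey triangles sorted WT Treg). Ikzf2 and Ctla4 lie higher in activated Treg than in resting Tconv of every group, whereas the red points of Tnfrsf9 lie far below the blue ones in activated Treg.

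Maf, a transcription factor of effector T cells, stood furthest above its level in resting Treg among genes that differed the same way in every sample. It averaged 592 CPM in activated Treg and 62.1 CPM in resting Treg, a median log2 difference of 3.96. The calcium-binding S100a4 (3.84), S100a6 (3.54) and S100a11 (3.18), the chemokine Ccl5 (3.31), the co-stimulatory receptor Icos (3.21), the chemokine receptor Cxcr3 (2.99), the inhibitory receptors Pdcd1 (2.64) and Lag3 (2.60) and the protease inhibitor Serpina3g (2.59) followed. Among the genes most below resting Treg were Ly6c1 (-3.08), the homing receptor gene Ccr7 (-2.09), Klf2, a transcription factor that keeps T cells circulating (-1.98), Satb1, a chromatin organiser of T cells (-1.89), and the survival gene Bcl2 (-1.89). Of 20 genes of the naive and resting list that reached 20 CPM, 9 were lower in activated Treg in every sample and 0 were higher, with a median of -1.29, beside 114 lower and 169 higher of all 5734 genes with a median of 0.18. Of 20 effector Treg genes 6 were higher in every sample and 0 lower (median 1.57), and of 25 activated and memory genes 6 were higher and 0 lower (0.81).

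Set against activated Tconv, activated Treg held more of the TNF receptor family: Tnfrsf4, which encodes OX40 (median log2 difference 2.76), Tnfrsf18, which encodes GITR (2.14), and Tnfrsf1b, which encodes TNF receptor 2 (1.95). Epcam (3.14), the tetraspanin Cd81 (2.68), Cd83 (2.64), the invariant chain Cd74 (2.31) and Ikzf4, which encodes the Treg factor Eos (1.79), also lay higher. Lower than in activated Tconv were Anxa1 (-2.96), the NK receptor Klrd1 (-2.87) and genes of dividing cells such as Birc5 (-2.55). Of 28 Treg signature genes that reached 20 CPM, 10 were higher than in activated Tconv in every sample and 0 were lower, with a median of 1.46, beside 107 higher and 81 lower of all 5769 genes. Of 25 proliferation genes, 0 were higher and 8 were lower, with a median of -1.13, beside 0.022 over all genes.

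Foxp3 was counted from the separate Foxp3 counts of the deposited metadata, because the Foxp3 row of the matrix is a sum of Foxp3 and GFP in WT cells and of Foxp3 and Cre in ∆Foxp3 cells. In V2 activated Treg it had 9.06 and 3.97 CPM in ∆Foxp3 samples (3 and 1 UMIs), against 36.7 and 43.4 CPM in WT samples (6 and 5 UMIs). In V3 activated Treg it had 6.86 and 11.1 CPM in ∆Foxp3 samples (2 and 4 UMIs), against 0 and 29.9 CPM in WT samples (0 and 3 UMIs). In the chimeras it had 8.64, 21.9 and 29.5 CPM in ∆Foxp3 cells (1, 3 and 3 UMIs), against 86.6, 32.8 and 44.7 CPM in WT cells (16, 11 and 8 UMIs). Foxp3 was lower in every ∆Foxp3 than in every WT sample of V2 and of the chimeras, but not of the V3 mice, and these few molecules do not check the labels firmly. Resting Tconv had at most 3.08 CPM. The sources used here do not say whether the disrupted allele still gives RNA counted as Foxp3, and Foxp3 was left out of the tests.

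GFP, which both alleles carry, was counted in activated Treg of every sample, in some of them from few molecules. It had 196 and 262 CPM in V2 ∆Foxp3 mice, against 79.4 and 209 CPM in V2 WT mice. It had 371 and 341 CPM in V3 ∆Foxp3 mice, against 149 and 130 CPM in V3 WT mice, and the resting Tconv of the V3 ∆Foxp3 mice also averaged 188 CPM. In the chimeras GFP had 17.3, 51.1 and 9.83 CPM in ∆Foxp3 cells, against 119, 158 and 151 CPM in WT cells. The chimera ∆Foxp3 levels rest on few molecules, since the activated Treg of these samples held 115712, 137074 and 101759 UMIs in all. They do not check the label firmly. The ∆Foxp3 samples thus lay above the WT samples in V3 mice and below them in the chimeras, and in V2 the groups overlapped. Activated Tconv of ∆Foxp3 mice also held GFP. They had 139 and 148 CPM in V2 ∆Foxp3 samples, against 11.4 and 15.1 CPM in V2 WT samples. In V3 they had 215 and 287 CPM in ∆Foxp3 samples, against 10.8 and 42.7 CPM in WT samples. In the chimeras every ∆Foxp3 sample of activated Tconv lay below every WT sample. GFP is therefore not particular to activated Treg in ∆Foxp3 mice. GFP was not tested. Cre had 1 UMI in V2 ∆Foxp3 activated Treg, 4 and 2 UMIs in the V3 ∆Foxp3 samples and 0 UMIs in the chimera ∆Foxp3 cells and in all WT samples.

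In the V2 mice, ∆Foxp3 activated Treg had lower levels of several Treg genes and far higher levels of T helper 1 (Th1) and cytotoxic genes than WT activated Treg. In the V3 mice the same 2 patterns were seen, and in the chimeras fewer genes passed and the Th1 genes were not among them. Over all 2984 genes tested, 340 passed an adjusted p of 0.05 (11.4%), 154 of them higher and 186 lower in ∆Foxp3 (edgeR's quasi-likelihood test, Benjamini-Hochberg adjusted, n = 2 samples each). DESeq2 called 89 genes, 54 higher and 35 lower, and without the low-count filter 295 were higher and 159 lower. In the V3 mice 206 of 3771 genes passed (5.46%), 94 higher and 112 lower in ∆Foxp3, or 170 and 88 without the filter, and DESeq2 called 117. In the chimeras 67 of 3771 passed (1.78%), 53 higher and 14 lower in ∆Foxp3, and with library size scaling 13 were higher and 18 lower. An unadjusted p under 0.05 was reached by 771, 624 and 355 genes. The V3 count was 93 without WT replicate 2 and 129 without WT replicate 1. The chimera count was 11 without ∆Foxp3 replicate 1, 23 without ∆Foxp3 replicate 3, 17 without WT replicate 1 and 27 without WT replicate 2. Lists of genes are read below by their counts and medians beside these shares, and by the medians over all genes tested of -0.0046 in V2, -0.013 in V3 and 0.0096 in the chimeras.

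Of the markers tested, only Tnfrsf9 passed in all 3 settings. It had 90.6 and 27.8 CPM in V2 ∆Foxp3 activated Treg, against 507 and 348 CPM in V2 WT activated Treg, a log2 fold change of -2.82 (SE 0.36, edgeR adjusted p = 0.000351). It had 3.43 and 16.6 CPM in V3 ∆Foxp3 samples, against 365 and 529 CPM in V3 WT samples (-5.36, SE 0.44, edgeR adjusted p = 2.41e-11). In the chimeras it had 69.1, 124 and 78.6 CPM in ∆Foxp3 cells, against 374, 596 and 413 CPM in WT cells (-2.23, SE 0.27, edgeR adjusted p = 2.49e-06). Every ∆Foxp3 sample lay below every WT sample, and the call held when any 1 sample was left out. Sorted WT Treg lay with the WT groups. Resting Treg were also lower in ∆Foxp3: 84.8 and 72.2 against 106 and 114 CPM in V2, 14.7 and 31.9 against 47.0 and 39.7 CPM in V3. In chimera resting Treg it was 28.4, 51.9 and 37.0 against 85.3, 93.2 and 85.1 CPM. Chimera resting Tconv also fell (8.98, 10.0 and 11.3 against 21.3, 20.4 and 23.6 CPM). V2 resting Tconv went the other way (35.3 and 28.5 against 13.5 and 9.26 CPM), as did V2 activated Tconv (25.3 and 23.9 against 21.7 and 20.4 CPM).

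At the level of cells, 10.5% ± 2.80 of V2 ∆Foxp3 activated Treg held a Tnfrsf9 UMI, against 42.7% ± 7.78 of V2 WT activated Treg (SD, n = 2 each). The V3 mice had 7.23% ± 7.02 in ∆Foxp3 and 64.4% ± 15.0 in WT (SD, n = 2 each), and the chimeras 27.3% ± 13.5 in ∆Foxp3 and 58.3% ± 6.44 in WT cells (SD, n = 3 each). With every cell thinned to 1500 UMIs, the Tnfrsf9 share was 8.34% in V2 ∆Foxp3 and 35.4% in V2 WT activated Treg, 1.22% in V3 ∆Foxp3 and 34.9% in V3 WT, and 9.02% in chimera ∆Foxp3 and 35.2% in chimera WT cells. Before thinning, resting Tconv held a Tnfrsf9 UMI in 5.85% of V2 ∆Foxp3 and 1.93% of V2 WT cells. In V3 the share was 9.03% and 12.9% of the cells of the 2 ∆Foxp3 samples and 3.75% of WT cells. In the chimeras it was 3.13% of ∆Foxp3 and 4.55% of WT cells. Thinned resting Tconv gave 3.44% in V2 ∆Foxp3, 3.99% and 2.82% in V3 ∆Foxp3 mice, and 1.04% in chimera ∆Foxp3 cells. Their median depth before thinning was close to that of activated Treg in the V3 ∆Foxp3 samples, with 6066 and 8331 UMIs in activated Treg and 6318 and 7994 UMIs in resting Tconv. The share in V3 ∆Foxp3 activated Treg is therefore not above that of resting Tconv, while the WT shares are.

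A sequence before a transcription start of Tnfrsf9, and those of Tnfrsf4 and Capg, which were also lower in ∆Foxp3 activated Treg in all 3 settings, are shown because Foxp3 is a forkhead protein that binds DNA and NF-κB drives genes of the TNF receptor family. Each is the 250 bases upstream of a start in RefSeq, build GRCm38.p6, on the + strand. Capitals mark a match to the κB letters, GGG and CC with any 5 bases between them. Tnfrsf9 lies on chromosome 4 (150914562 to 150946102, + strand) and has 2 such windows in RefSeq, of which 1 is given. Tnfrsf4 lies on chromosome 4 (156013843 to 156016612, + strand) and Capg on chromosome 6 (72544391 to 72562983, + strand). The Tnfrsf9 and Capg windows precede a start that lies within the annotated span of the gene, while the Tnfrsf4 window lies before the span.
Tnfrsf9, chr4:150919905-150920154: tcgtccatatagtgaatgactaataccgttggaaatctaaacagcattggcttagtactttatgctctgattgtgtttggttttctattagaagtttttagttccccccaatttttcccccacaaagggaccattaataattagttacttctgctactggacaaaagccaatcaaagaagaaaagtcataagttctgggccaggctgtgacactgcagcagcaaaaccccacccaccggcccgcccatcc
Tnfrsf4, chr4:156013445-156013694: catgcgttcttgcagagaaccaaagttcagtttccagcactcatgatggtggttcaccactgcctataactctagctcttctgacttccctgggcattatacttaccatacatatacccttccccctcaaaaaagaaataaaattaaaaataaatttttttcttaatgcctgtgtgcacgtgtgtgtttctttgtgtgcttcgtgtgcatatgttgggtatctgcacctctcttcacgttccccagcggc
Capg, chr6:72549397-72549646: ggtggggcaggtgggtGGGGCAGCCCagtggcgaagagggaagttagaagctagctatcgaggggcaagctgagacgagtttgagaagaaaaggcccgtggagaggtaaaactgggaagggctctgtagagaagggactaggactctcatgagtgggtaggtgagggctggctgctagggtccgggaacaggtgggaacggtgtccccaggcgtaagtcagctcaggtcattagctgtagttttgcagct
Searched on both strands, the forkhead letters TGTTTAC were in 0 of these 3 windows and the κB letters were in the Capg window alone. Among 32851 mouse windows of the same length, 3.17% held the forkhead letters and 45.8% held the κB letters, so a match or its absence in 1 window is a description of these letters only.

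The other 4 markers separated the genotypes less. Ikzf2 had 263 and 286 CPM in V2 ∆Foxp3 activated Treg, against 495 and 426 CPM in V2 WT activated Treg (log2 fold change -0.79, edgeR adjusted p = 0.0175). In the chimeras it had 467, 620 and 540 CPM in ∆Foxp3 cells, against 1007, 1018 and 726 CPM in WT cells (-0.65, edgeR adjusted p = 0.028). The groups did not overlap in either set, but leaving out either sample numbered A ended the V2 call (-0.73 without the ∆Foxp3 one and -0.66 without the WT one). The chimera call was lost without ∆Foxp3 replicate 1 (-0.55) or 3 (-0.64), or without WT replicate 1 (-0.61) or 2 (-0.57). Chimera activated Tconv had 40.3, 191 and 76.3 CPM of Ikzf2 in ∆Foxp3 cells, against 297, 311 and 175 CPM in WT cells. V2 activated Tconv went the other way (152 and 133 against 78.8 and 58.5 CPM). In the V3 mice Ikzf2 had 580 and 554 CPM in ∆Foxp3 samples, against 541 and 678 CPM in WT samples, with no call (log2 fold change -0.14, edgeR adjusted p = 0.826), and without WT replicate 2 it was 0.090. Resting Tconv of the V3 ∆Foxp3 samples held 177 and 161 CPM of Ikzf2, against 4.55 and 10.8 CPM in those of V3 WT samples, and the part of this RNA in the V3 values was not tested.

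Ctla4 had 302, 270 and 216 CPM in chimera ∆Foxp3 activated Treg, against 688, 450 and 380 CPM in chimera WT activated Treg (log2 fold change -0.81, edgeR adjusted p = 0.0389). It had 333 and 285 CPM in V3 ∆Foxp3 samples, against 500 and 588 CPM in V3 WT samples (-0.85, edgeR adjusted p = 0.0343). The V3 call was lost without any 1 of its 4 samples (-0.94 to -0.68), and the chimera call without ∆Foxp3 replicate 1 (-0.92), 2 (-0.83) or 3 (-0.70) or WT replicate 1 (-0.57). In V2 it had 217 and 139 CPM in ∆Foxp3 samples, against 299 and 269 CPM in WT samples, a log2 fold change of -0.69 that did not pass (edgeR adjusted p = 0.107), although it did without ∆Foxp3 replicate A (-1.07). Ctla4 thus lay lower in every ∆Foxp3 sample than in every WT sample of its set. Chimera activated Tconv showed the same direction, with 25.5, 73.3 and 42.5 CPM in ∆Foxp3 cells, against 106, 109 and 85.3 CPM in WT cells. V2 activated Tconv went the other way (48.4 and 34.3 against 22.8 and 25.0 CPM). Resting Tconv of V3 held 54.1 and 63.2 CPM of Ctla4 in ∆Foxp3 samples, against 9.38 and 6.83 CPM in WT samples, and the part of this RNA was not tested. Itgae stayed under 82 CPM in every sample and passed no test.

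Among the receptors and ligands of the TNF family, Tnfrsf4 followed Tnfrsf9. Tnfrsf4 had 484, 438 and 491 CPM in chimera ∆Foxp3 activated Treg, against 1619, 1269 and 659 CPM in chimera WT activated Treg (log2 fold change -1.22, edgeR adjusted p = 0.00264). It fell by 0.84 on the log2 scale in V2 ∆Foxp3 mice (edgeR adjusted p = 0.0153) and by 0.98 in V3 ∆Foxp3 mice (edgeR adjusted p = 0.0222). The V2 call of Tnfrsf4 was lost without WT replicate A (-0.40), while the chimera call held in all 6 omissions. Tnfrsf18 fell by 0.87 in V3 ∆Foxp3 mice (edgeR adjusted p = 0.0117) and by 0.71 in chimera ∆Foxp3 cells (edgeR adjusted p = 0.028, lost in all omissions but that of WT replicate 3, with values of -0.84 to -0.59), and its log2 fold change of -0.41 in V2 did not pass (edgeR adjusted p = 0.107).

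Tnfsf8, which encodes the CD30 ligand, went the other way. It had 147, 153 and 177 CPM in chimera ∆Foxp3 activated Treg, against 5.42, 32.8 and 11.2 CPM in chimera WT activated Treg (log2 fold change 3.08, SE 0.41, edgeR adjusted p = 1.33e-05), and this call held in every omission. In V3 it had 117 and 72.1 CPM in ∆Foxp3 samples, against 13.5 and 0 CPM in WT mice (3.87, edgeR adjusted p = 0.0053), a call lost without WT replicate 2 (2.75). In V2 it had 75.5 and 79.4 CPM in ∆Foxp3 samples, against 18.3 and 52.1 CPM in WT mice, and did not pass (edgeR adjusted p = 0.139). Resting Tconv of the chimeras averaged 56.9 CPM of Tnfsf8 in ∆Foxp3 cells and 58.8 CPM in WT cells, between the 2 groups of activated Treg. Of the list of co-stimulatory receptors and ligands, 1 of 12 tested genes was higher and 5 lower in V2 (median -0.53), 2 of 11 were higher and 7 lower in V3 (-0.98), and 1 of 11 was higher and 3 lower in the chimeras (-0.26), read beside the shares of all genes called above.

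Several genes of the Treg signature were nearly lost from the activated Treg of ∆Foxp3 mice but not from ∆Foxp3 cells of the chimeras. Il2ra encodes the high-affinity subunit of the interleukin-2 receptor. It had 6.04 and 3.97 CPM in V2 ∆Foxp3 activated Treg, against 55.0 and 130 CPM in V2 WT activated Treg (log2 fold change -3.97, edgeR adjusted p = 0.00249), and fell by 2.67 in V3 ∆Foxp3 mice (edgeR adjusted p = 0.0201, lost without ∆Foxp3 replicate 2, at -2.16, and without either WT replicate, at -2.65 each). In the chimeras Il2ra had 77.8, 21.9 and 19.7 CPM in ∆Foxp3 cells, against 157, 47.6 and 78.2 CPM in WT cells. The groups overlapped and the gene did not pass (edgeR adjusted p = 0.498). Within each chimera mouse, however, the ∆Foxp3 value lay below the WT value, and the low values rest on few molecules. Lrrc32, which encodes GARP, the protein that tethers latent TGF-β to Treg, had 0 UMIs in the V3 ∆Foxp3 samples, against 108 and 29.9 CPM in V3 WT samples, at least 13.7-fold lower when the group is set to 3 counts in all, a call lost without WT replicate 1. Lrrc32 had 25.9, 21.9 and 49.1 CPM in chimera ∆Foxp3 cells, against 70.4, 17.9 and 72.6 CPM in chimera WT cells, which did not pass (edgeR adjusted p = 0.89).

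Klrg1, a receptor of terminally differentiated Treg, had 75.5 and 11.9 CPM in V2 ∆Foxp3 activated Treg, against 269 and 209 CPM in V2 WT activated Treg (log2 fold change -2.37, edgeR adjusted p = 0.00529). It had 3.43 and 5.54 CPM in V3 ∆Foxp3 mice, against 94.6 and 160 CPM in V3 WT mice (-4.69, edgeR adjusted p = 1.93e-06). In the chimeras Klrg1 had 112, 109 and 108 CPM in ∆Foxp3 cells, against 135, 71.5 and 61.4 CPM in WT cells, with no call (edgeR adjusted p = 0.739). Cd83, a surface protein induced in activated Treg, fell by 4.25 in V2 (edgeR adjusted p = 5.93e-05) and by 3.43 in V3 (edgeR adjusted p = 0.000588), and had a log2 fold change of -0.31 in the chimeras (edgeR adjusted p = 0.878). Id3, an inhibitor of E proteins that Treg need, and Epcam showed the same order: Id3 fell by 4.10 and 4.39 and Epcam by 2.36 and 4.33 in V2 and V3 ∆Foxp3 mice, while neither passed in the chimeras. Without V3 WT replicate 2 the V3 calls of Cd83 (-1.84) and Epcam (-3.39) were lost, and without V3 WT replicate 1 that of Id3 (-3.49).

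**Figure D3:**
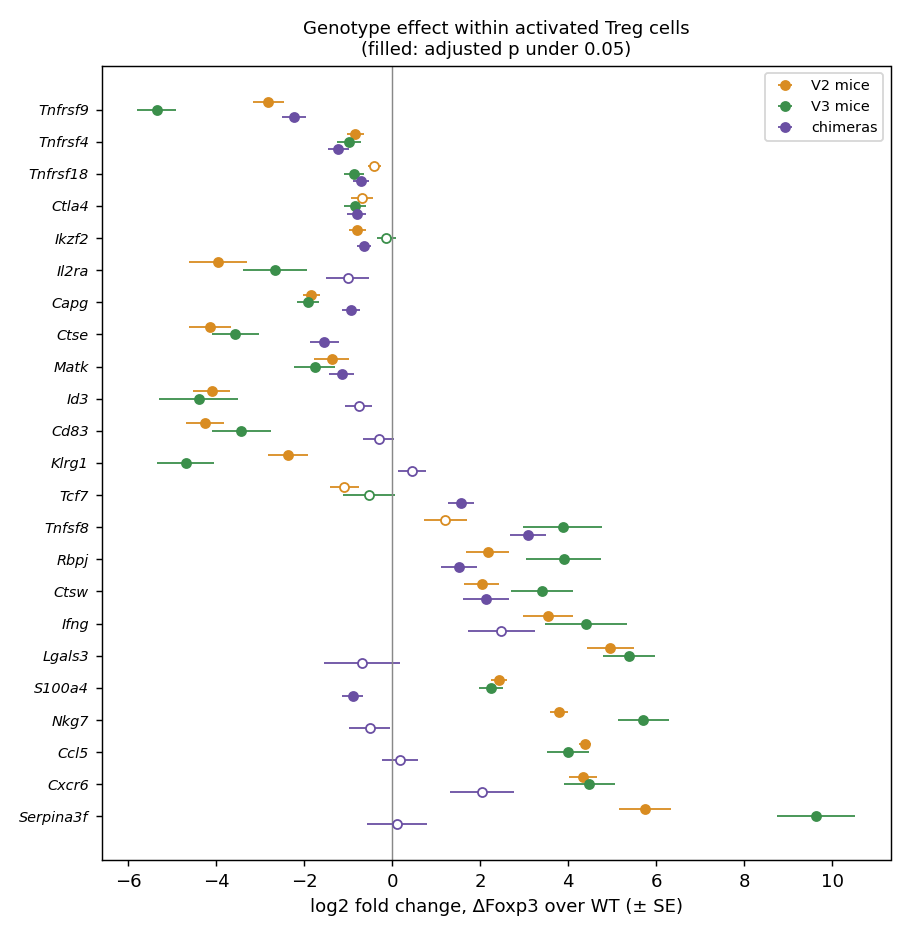
Log2 fold changes (∆Foxp3 over WT) of 23 genes in activated Treg of V2 mice, V3 mice and chimeras, with standard errors; filled points passed an adjusted p of 0.05. Tnfrsf9, Tnfrsf4, Capg, Ctse and Matk lie below 0 and filled in all 3 settings, whereas Ccl5 and Nkg7 lie far above 0 in the mice and near 0 in the chimeras; the V3 point of Serpina3f depends on the prior count, since V3 WT samples had 0 counts.

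The Treg signature list gives the sum of these genes. In V2, 1 of its 20 tested genes was higher and 10 were lower in ∆Foxp3 activated Treg, with a median log2 fold change of -0.77. In V3, 0 of 24 were higher and 13 were lower, with a median of -1.63. In the chimeras 0 of 24 were higher and 6 were lower, with a median of -0.49. Of the suppressor list, 5 of 10 tested genes were higher and 1 lower in V2, Lag3 among the higher ones, 1 of 15 was higher and 4 lower in V3, and 0 of 15 were higher and 1 lower in the chimeras. Of the IL-2 and STAT5 targets, 3 of 9 were lower in V2, 1 of 10 in V3 and 0 of 10 in the chimeras, and 0 were higher. For the Treg signature, each share of lower genes lies above the 11.4%, 5.46% and 1.78% of all genes called in either direction. The lists were drawn up with earlier results of these data known, and only genes that passed the filter on low counts were tested.

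Genes lower in ∆Foxp3 activated Treg in all 3 settings, beside Tnfrsf9 and Tnfrsf4, were Capg, Ctse and Matk. Capg, an actin-capping protein, had 163 and 151 CPM in V2 ∆Foxp3 mice, against 562 and 539 CPM in V2 WT mice (log2 fold change -1.84, edgeR adjusted p = 8.18e-05). It had 117 and 252 CPM in V3 ∆Foxp3 mice, against 622 and 768 CPM in V3 WT mice (-1.91, edgeR adjusted p = 1.33e-06), and 311, 387 and 285 CPM in chimera ∆Foxp3 cells, against 747, 712 and 598 CPM in chimera WT cells (-0.94, edgeR adjusted p = 0.00942). No groups overlapped, although the chimera call was lost without ∆Foxp3 replicate 1 (-0.90) or 3 (-0.85). Ctse, which encodes the protease cathepsin E, fell by 4.14 in V2 (edgeR adjusted p = 0.000147), by 3.57 in V3 (9.04e-06) and by 1.54 in the chimeras (0.00928, lost without ∆Foxp3 replicate 3, at -1.31). Resting Tconv showed the same direction for Ctse, with means of 16.3 CPM in ∆Foxp3 and 169 CPM in WT of V2, and 17.3 and 157 CPM in ∆Foxp3 and WT cells of the chimeras. Matk, a kinase that restrains Src kinases, fell by 1.38, 1.76 and 1.14 in V2, V3 and the chimeras, and its chimera call was lost without ∆Foxp3 replicate 1 (-0.83) or 2 (-1.22) or WT replicate 1 (-1.18) or 2 (-1.16).

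The Th1 and cytotoxic genes rose in the activated Treg of ∆Foxp3 mice and did not pass in the chimeras. Ccl5 had 15612 and 18704 CPM in V2 ∆Foxp3 activated Treg, against 770 and 843 CPM in V2 WT activated Treg (log2 fold change 4.38, SE 0.13, edgeR adjusted p = 7.24e-10). It had 7542 and 4440 CPM in V3 ∆Foxp3 mice, against 405 and 349 CPM in V3 WT mice (3.98, SE 0.48, edgeR adjusted p = 1.78e-07). In the chimeras Ccl5 had 51.9, 1014 and 295 CPM in ∆Foxp3 cells, against 525, 670 and 112 CPM in WT cells, and the groups overlapped widely (0.17, edgeR adjusted p = 0.967). Nkg7, a protein of cytotoxic granules, had 2180 and 2682 CPM in V2 ∆Foxp3 mice, against 202 and 130 CPM in V2 WT mice (3.79, edgeR adjusted p = 2.06e-07). Nkg7 had 1088 and 798 CPM in V3 ∆Foxp3 mice, against 27.0 and 9.97 CPM in V3 WT mice (5.71, edgeR adjusted p = 5.35e-09). In chimera ∆Foxp3 cells it had 17.3, 131 and 39.3 CPM, against 119, 134 and 39.1 CPM in chimera WT cells (edgeR adjusted p = 0.837).

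Other genes of these programmes moved the same way in the mice. Cxcr6, a chemokine receptor of tissue-homing T cells, rose by 4.34 in V2 and 4.48 in V3 and did not pass in the chimeras (edgeR adjusted p = 0.21). Ifng, the Th1 cytokine interferon-γ, had 172 and 274 CPM in V2 ∆Foxp3 mice, against 30.6 and 0 CPM in V2 WT mice (log2 fold change 3.54, edgeR adjusted p = 0.00218). It had 8.64, 65.7 and 39.3 CPM in chimera ∆Foxp3 cells, against 5.42, 8.93 and 5.58 CPM in chimera WT cells (2.48, edgeR adjusted p = 0.0902), which does not pass. With the mouse as a block the Ifng value was 2.59 (edgeR adjusted p = 0.0491), and over the other settings its adjusted p was 0.0717 to 0.649. The chemokine Ccl4 had 0 UMIs in the WT samples of V2 and V3 and was at least 59.4-fold higher in V2 ∆Foxp3 mice and at least 5.97-fold higher in V3 ∆Foxp3 mice, where the call was lost without ∆Foxp3 replicate 1 or WT replicate 2. Gzmb, which encodes granzyme B, had 489 and 421 CPM in V2 ∆Foxp3 mice, against 36.7 and 17.4 CPM in V2 WT mice (3.94, edgeR adjusted p = 1.23e-05). In V3 Gzmb had 281 and 346 CPM in ∆Foxp3 samples, against 622 and 0 CPM in WT mice, where the 622 CPM came from 1 of 13 cells, and without WT replicate 2 the log2 fold change of 0.19 became -0.96.

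Ctsw and Rbpj were higher in ∆Foxp3 activated Treg in all 3 settings. Ctsw, which encodes cathepsin W of cytotoxic cells, had 34.6, 73.0 and 68.8 CPM in chimera ∆Foxp3 cells, against 10.8, 20.8 and 5.58 CPM in chimera WT cells (log2 fold change 2.13, edgeR adjusted p = 0.0256). It rose by 2.03 in V2 and by 3.41 in V3 (edgeR adjusted p = 0.00682 and 0.00118). Rbpj, the DNA-binding partner of Notch, rose by 2.17 in V2, 3.90 in V3 and 1.52 in the chimeras (edgeR adjusted p = 0.0131, 0.00266 and 0.0443). The chimera groups of both genes did not overlap, but the Ctsw call was lost without ∆Foxp3 replicate 2 (1.91) or 3 (2.04) or WT replicate 1 (2.00) or 3 (1.89). The Rbpj call was lost in each of the 6 omissions, with values of 1.13 to 1.69. Resting Tconv of the chimeras averaged 35.3 CPM of Ctsw in ∆Foxp3 and 41.3 CPM in WT cells.

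Over the Th1 and cytotoxic list, 10 of 10 tested genes were higher in V2 ∆Foxp3 activated Treg, with a median log2 fold change of 4.22. In V3, 7 of 11 were higher and 0 lower, with a median of 3.85. In the chimeras 0 of 11 were called, with a median of 0.17. A gene can enter these tests through 1 group alone, as Ccl4 did, so the counts cover the tested genes and not the list. Of the activated and memory list, 14 of 25 were higher in V2 (median 0.97), 10 of 25 in V3 (0.55) and 0 of 25 in the chimeras (-0.23), where 1 was lower.

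The V3 ∆Foxp3 samples also carried much of this RNA in cells that are not activated. Serpina3f, a protease inhibitor, had 439 and 457 CPM in V3 ∆Foxp3 activated Treg, against 0 and 0 CPM in V3 WT activated Treg, at least 26.1-fold higher, and resting Tconv of those mice averaged 47.1 CPM. A Serpina3f UMI was present in 79.0% of V3 ∆Foxp3 activated Treg and in 19.2% of resting Tconv of the same samples. For Nkg7 the shares were 79.9% of activated Treg and 59.8% of resting Tconv. Thinned to 1500 UMIs a cell, Serpina3f was in 41.2% of activated Treg and 6.47% of resting Tconv, and Nkg7 in 55.2% of activated Treg and 39.2% of resting Tconv. Lgals3, which encodes galectin-3, had 642 and 388 CPM in V3 ∆Foxp3 activated Treg, against 13.5 and 9.97 CPM in V3 WT activated Treg, while resting Tconv of the V3 ∆Foxp3 mice averaged 552 CPM. S100a4 likewise averaged 2586 CPM in those resting Tconv, against 33.7 CPM in resting Tconv of V3 WT mice. The part of this shared RNA in the V3 differences was not tested; the V2 ∆Foxp3 resting Tconv averaged 37.6 CPM of Lgals3 and 85.9 CPM of S100a4, and their activated Treg had 423 and 286 CPM of Lgals3 and 1087 and 1131 CPM of S100a4. Serpina3f shares near-identical copies in the genome, so its counts may be split among them.

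**Figure D4:**
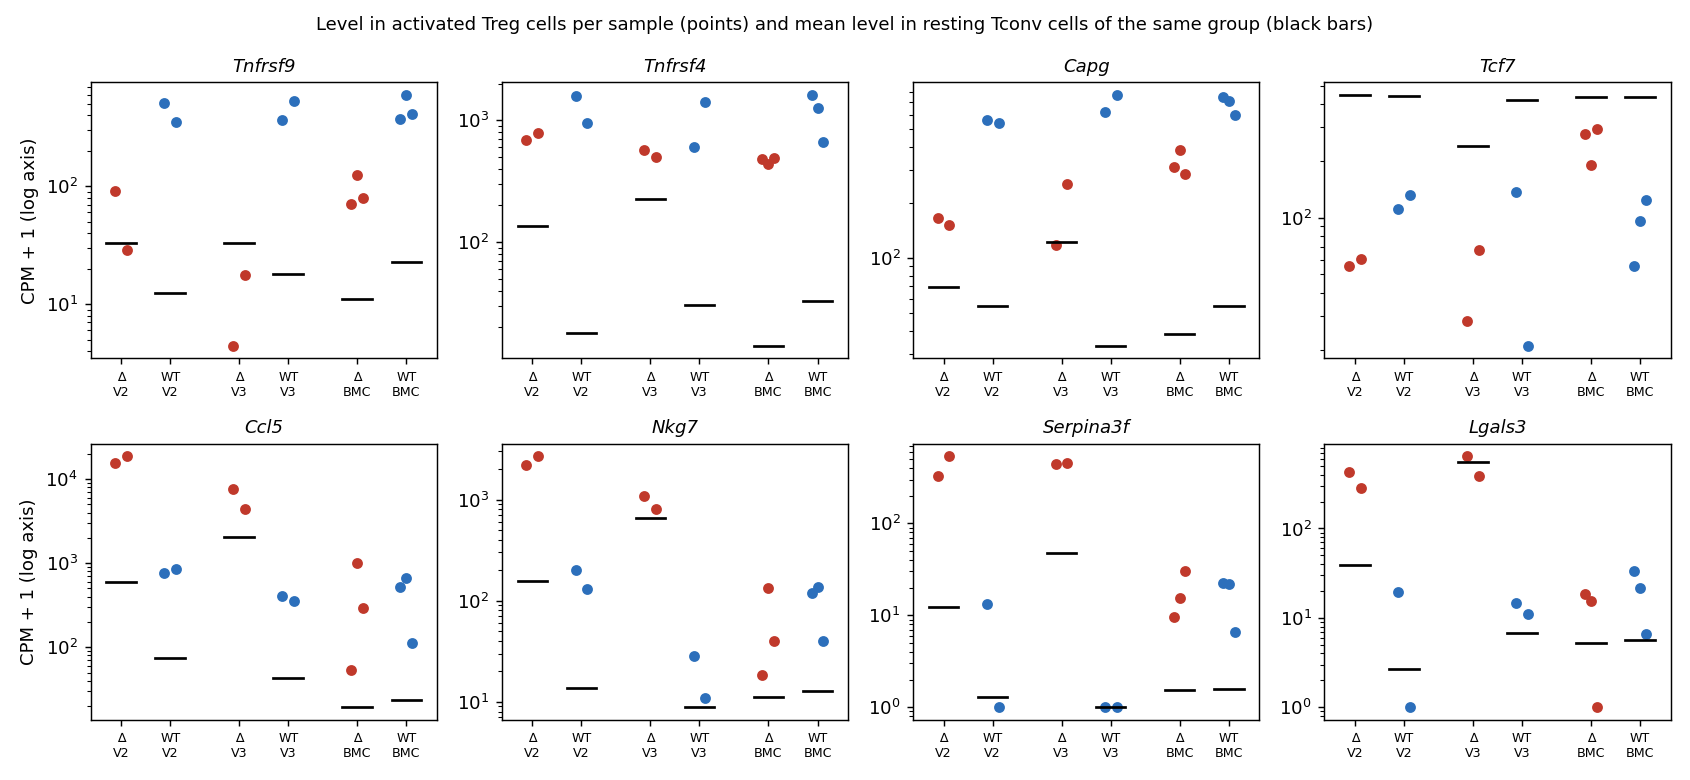
CPM of Tnfrsf9, Tnfrsf4, Capg, Tcf7, Ccl5, Nkg7, Serpina3f and Lgals3 in activated Treg, on a log axis (CPM plus 1), 1 point per sample, ∆Foxp3 (red, ∆) left of WT (blue) in V2 mice, V3 mice and chimeras (BMC); black bars are the mean of resting Tconv in the same group. In V3 ∆Foxp3 mice the Lgals3 bar of 552 CPM lies between the 2 activated Treg points, whereas the Serpina3f bar of 47.1 CPM lies far below them.

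Some genes of effector and memory T cells also rose in the mice. S100a4 had 1087 and 1131 CPM in V2 ∆Foxp3 activated Treg, against 220 and 174 CPM in V2 WT activated Treg (log2 fold change 2.44, edgeR adjusted p = 5.64e-06). In the chimeras it had 493, 620 and 314 CPM in ∆Foxp3 cells, against 1413, 846 and 698 CPM in WT cells (-0.90, edgeR adjusted p = 0.0368), a call lost without ∆Foxp3 replicate 1 (-0.91) or 3 (-0.69) or WT replicate 1 (-0.59). Id2, a transcriptional regulator of effector T cells, rose by 2.21 in V2 and 2.24 in V3 ∆Foxp3 mice and did not pass in the chimeras (edgeR adjusted p = 0.253). Lag3 had 619 and 488 CPM in V2 ∆Foxp3 mice, against 73.3 and 8.69 CPM in V2 WT mice (3.54, edgeR adjusted p = 0.000101), and passed in neither other set. Maf rose by 1.10 in V2 and 1.06 in V3 ∆Foxp3 mice (edgeR adjusted p = 0.00474 and 0.00338) with 0.07 in the chimeras, and the V3 call was lost without WT replicate 1 (0.64). Of the effector Treg list, 7 of 15 tested genes were higher in V2 ∆Foxp3 activated Treg and 0 lower (median 1.06), 2 of 18 were higher in V3 (0.26), and 0 of 18 were higher and 1 lower in the chimeras (-0.41).

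In the chimeras the genes that were higher in ∆Foxp3 activated Treg included several of resting T cells. Tcf7, which encodes TCF-1, a factor of naive and memory T cells, had 277, 190 and 295 CPM in chimera ∆Foxp3 cells, against 54.2, 95.3 and 123 CPM in chimera WT cells (a log2 fold change of 1.56 with SE 0.30, edgeR adjusted p = 0.00311). The groups did not overlap, and the call held in every omission. Resting Tconv averaged 435 CPM of Tcf7 in chimera ∆Foxp3 cells and 433 CPM in chimera WT cells, above both kinds of activated Treg. Satb1 had 95.1, 80.2 and 78.6 CPM in chimera ∆Foxp3 cells, against 21.7, 38.7 and 16.8 CPM in chimera WT cells (1.68, edgeR adjusted p = 0.0247), a call lost without any 1 ∆Foxp3 replicate (1.58, 1.72 and 1.72) or WT replicate 1 (1.54). Themis, a signalling protein of T cell development, had 130, 43.8 and 88.4 CPM in chimera ∆Foxp3 cells, against 0, 8.93 and 11.2 CPM in chimera WT cells (3.59, edgeR adjusted p = 0.00238), a call lost without ∆Foxp3 replicate 1 (3.16). These 3 genes are on the list of genes known to be lower in Treg than in Tconv, of which 3 of 9 were higher and 0 lower in the chimeras, with a median of 0.87. In the V3 mice 3 of 9 of that list were also higher and 0 lower (median 0.95), and in V2 2 of 8 were higher and 2 lower (0.15).

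Tcf7, Satb1 and Themis were not called higher in the mice. Tcf7 had 54.4 and 59.5 CPM in V2 ∆Foxp3 activated Treg, against 110 and 130 CPM in V2 WT activated Treg (log2 fold change -1.09, edgeR adjusted p = 0.0536). Satb1 fell by 1.63 in V2 ∆Foxp3 mice (edgeR adjusted p = 0.00653), and Themis was not tested there. In V3 the log2 fold changes of Tcf7 (-0.52), Satb1 (0.59) and Themis (1.94) did not pass (edgeR adjusted p = 0.742, 0.572 and 0.135). Ccr7 and Il7r, which encodes the interleukin-7 receptor, fell by 3.47 and 2.22 in V2 ∆Foxp3 mice (edgeR adjusted p = 0.000932 and 0.00422). Il7r rose by 1.05 in V3 ∆Foxp3 mice (edgeR adjusted p = 0.0207, lost without ∆Foxp3 replicate 2, at 0.95, or WT replicate 2, at 0.74). Klf2 fell by 0.97 in V2 ∆Foxp3 mice (0.0195) and rose in the V3 ones: it had 542 and 468 CPM in V3 ∆Foxp3 mice, against 108 and 69.8 CPM in V3 WT mice (2.52, edgeR adjusted p = 8.74e-05). Of the naive and resting list, 0 of 12 tested genes were higher and 10 lower in V2 (median -2.15), 2 of 14 were higher and 4 lower in V3 (-0.48), and 2 of 14 were higher and 0 lower in the chimeras (0.58).

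**Figure D5:**
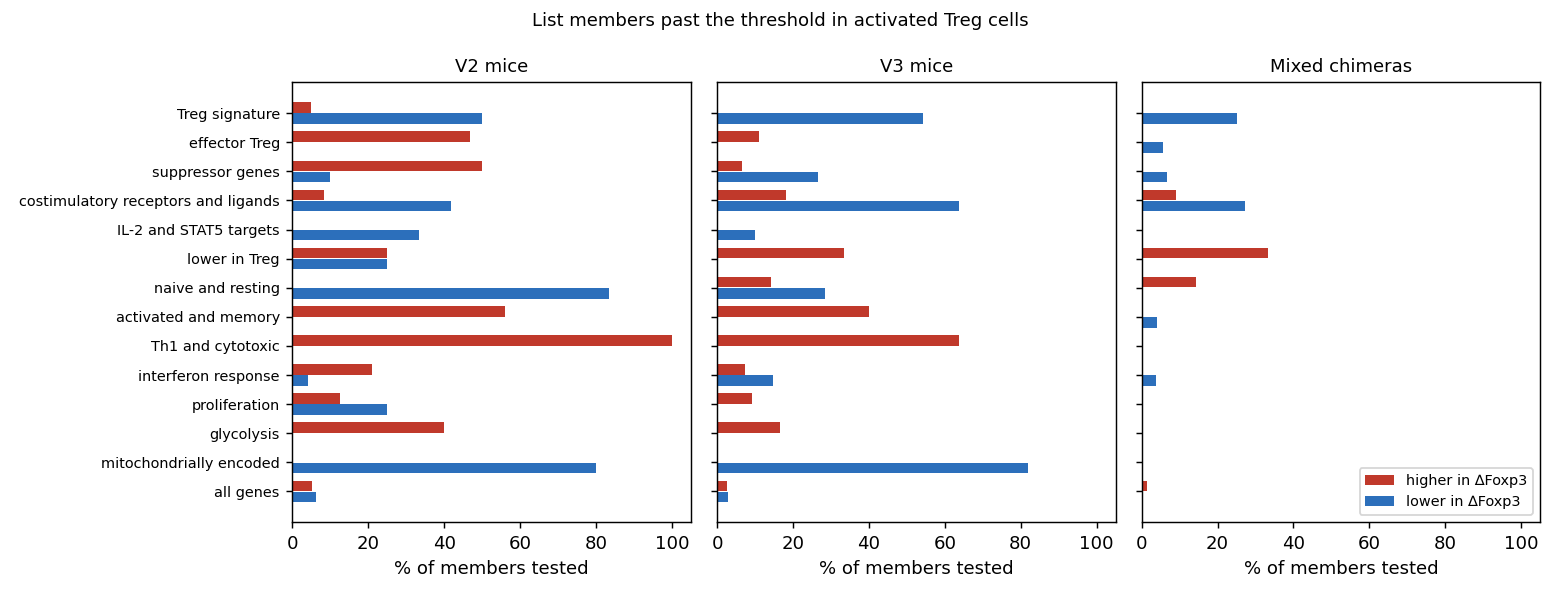
Percent of the tested genes of each list that were higher or lower in ∆Foxp3 activated Treg, in panels for V2 mice, V3 mice and chimeras. The Th1 and cytotoxic list reaches 10 of 10 genes higher in V2 and 0 of 11 in the chimeras, whereas the Treg signature list holds lower genes in all 3 panels.

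Transcripts of the mitochondrial genome and some genes of glycolysis also differed in the mice. Gapdh, an enzyme of glycolysis, had 1703 and 1770 CPM in V2 ∆Foxp3 activated Treg, against 874 and 773 CPM in V2 WT activated Treg (log2 fold change 1.04, edgeR adjusted p = 0.000326), and rose by 1.06 in V3 ∆Foxp3 mice, whose resting Tconv averaged 1897 CPM, against 529.8 CPM in V3 WT resting Tconv. Of the glycolysis list 4 of 10 tested genes were higher in V2, 2 of 12 in V3 and 0 of 12 in the chimeras, and 0 were lower. mt-Cytb, which encodes cytochrome b, had 3160 and 3063 CPM in V3 ∆Foxp3 mice, against 8230 and 8228 CPM in V3 WT mice (-1.42, edgeR adjusted p = 2.47e-11), and fell by 0.86 in V2. Of the mitochondrially encoded transcripts, 8 of 10 were lower in V2 and 9 of 11 in V3 ∆Foxp3 activated Treg, and 0 of 11 were called in the chimeras (medians -0.71, -0.76 and 0.22). Resting Tconv also lay lower in ∆Foxp3 mice, with a mean summed level of these transcripts of 23465 CPM in V2 ∆Foxp3 and 27117 CPM in V2 WT samples and of 48249 CPM in V3 ∆Foxp3 and 69835 CPM in V3 WT samples. The mean in activated Treg was 19372 CPM in V2 ∆Foxp3 and 28412 CPM in V2 WT samples, and 41687 CPM in V3 ∆Foxp3 and 68335 CPM in V3 WT samples. The median mitochondrial share of UMIs per activated Treg moved with this, at 1.90% to 1.97% in V2 ∆Foxp3 samples and 2.64% to 2.83% in V2 WT samples, 4.32% to 4.70% in V3 ∆Foxp3 and 6.84% to 7.35% in V3 WT samples, and 5.86% to 6.47% in chimera ∆Foxp3 and 5.36% to 6.23% in chimera WT samples. Whether cell quality plays a part in these differences was not tested.

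In the chimeras, genes of ribosomal proteins, a group chosen after their values were seen, held much of the higher calls: 37 of 82 were higher in ∆Foxp3 activated Treg and 0 lower, with a median of 0.40. In V2, 0 of 84 were higher and 35 lower (median -0.36), and in V3 0 of 82 were higher and 4 lower (-0.017). The chimera count moved with scaling and with the samples fitted. With library size scaling, which moved the median of all genes by -0.11, 8 of 82 were higher, with a median of 0.28. It was also 8 of 82, with a median of 0.37, when only the chimera groups were fitted, and 61 of 82 by DESeq2. Their summed level was 257379 to 281034 CPM in chimera ∆Foxp3 cells, against 212118 to 237167 CPM in chimera WT cells. Resting Tconv of the chimeras moved the same way, with 409069 to 417458 CPM in ∆Foxp3 and 384559 to 392514 CPM in WT cells. In V2 resting Tconv it was 385213 to 391398 CPM in ∆Foxp3 and 404049 to 407503 CPM in WT samples. The V3 resting Tconv had 287441 to 304269 CPM in ∆Foxp3 and 406439 to 407729 CPM in WT samples.

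RNA typical of B cells was also lower in ∆Foxp3 activated Treg. Ighm, which encodes the heavy chain of IgM, fell by 2.15 in V2 and by 3.95 in V3 (edgeR adjusted p = 0.000464 and 6.15e-09), and Cd74 fell by 2.09 and 2.04 (0.0016 and 0.000195, the V3 call lost without WT replicate 2, at -1.02). The summed level of the B cell list was 107 to 229 CPM in V2 ∆Foxp3 samples, against 547 to 599 CPM in V2 WT samples, 127 to 152 CPM in V3 ∆Foxp3 samples, against 432 to 898 CPM in V3 WT samples, and 482 to 511 CPM in chimera ∆Foxp3 cells, against 737 to 962 CPM in chimera WT cells. Both tested genes of that list were lower in V2 and V3 and neither passed in the chimeras, while the defining B cell genes Cd79a and Ms4a1 were at 13.5 CPM or less in every sample. The 2 tested myeloid markers passed in none of the 3 sets. Across all samples, 12 of the 769 activated Treg held at least 2 UMIs of the 19 defining markers of other cell types.

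Whether the ∆Foxp3 effect, the difference from WT, was the same in activated Treg and activated Tconv was tested in the same samples. In the mice this effect includes the state of the host, and in V3 also age. In V2, 150 of 7596 genes passed (1.97%), 89 with a more positive and 61 with a more negative effect in activated Treg, or 59 and 82 with library size scaling. DESeq2 called 25. Tnfrsf9 had a log2 difference of -2.91 (edgeR adjusted p = 1.6e-12), Ikzf2 -1.71 (6.51e-11), Klrg1 -4.61 (1.58e-29), Cd74 -3.55 and Id3 -3.28, and these calls held in every omission. Ctla4 had a difference of -1.37 (edgeR adjusted p = 0.00183), which did not pass without either WT replicate (-1.21 without A, -1.46 without B) or without ∆Foxp3 replicate A (-1.44), nor when the NKT cluster was left out of activated Tconv (-0.89). The V2 count was 37 without WT replicate A, 52 without WT replicate B and 93 without ∆Foxp3 replicate A. In V3, 18 of 5962 genes passed (0.302%), among them Tnfrsf9 (-5.45, edgeR adjusted p = 5.06e-06), Tnfrsf4 (-1.64, 0.000214), Ccl5 (3.58, 2.81e-10) and Nkg7 (4.40, 1.92e-05). The V3 count was 31 without WT replicate 1 and 61 without WT replicate 2.

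In the chimeras 3 of 7394 genes passed against activated Tconv (0.0406%): Tnfsf8 at 3.03 (edgeR adjusted p = 0.000146), Klrg1 at 3.06 (0.0081) and Themis at 3.27 (0.01). The Tnfsf8 call held in every omission, while without ∆Foxp3 replicate 1 the calls of Klrg1 (2.60) and Themis (2.89) were lost, and without WT replicate 2 that of Themis (3.63). An unadjusted p under 0.05 was reached by 338 genes. Tnfrsf9 had a difference of -0.76 there, which did not pass (edgeR adjusted p = 0.999). The chimera count was 9 without ∆Foxp3 replicate 2, 6 without ∆Foxp3 replicate 3, 5 without WT replicate 1 and 2 at the lowest.

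Against resting Treg, 109 of 3508 genes passed in V2 (3.11%), 46 more positive and 63 more negative in activated Treg. Cd74 (-4.62), Ccr7 (-4.77), Cd7, a T cell surface protein (3.67), and the protease Ctsd (2.66) held in every omission. Tnfrsf9 had a difference of -2.13 (edgeR adjusted p = 0.00073), lost without WT replicate A (-1.75). In V3, 10 of 2487 genes passed (0.402%), Tnfrsf9 at -4.27 (edgeR adjusted p = 0.0235) and Klf2 at 2.31 among them. The Tnfrsf9 call was lost without ∆Foxp3 replicate 1 (-4.06) or 2 (-4.95) or WT replicate 2 (-3.82), and the Klf2 call without ∆Foxp3 replicate 1 (2.01). In the chimeras 2 of 2786 genes passed (0.0718%), H2afz at 0.97 and Ms4a4b at 0.88. In V3, 0 genes passed without ∆Foxp3 replicate 1, and 47 passed without WT replicate 2. The V2 count was 34 without WT replicate B, 41 without WT replicate A and 66 without ∆Foxp3 replicate B, and the chimera count was 0 or 1 in the omissions.

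The ∆Foxp3 effect in V3 mice and that in the chimeras, which share no sample, were set against each other in 1 fit. Their difference passed for 113 of 3771 genes (3.00%), 46 more positive and 67 more negative in the mice. With library size scaling the split was 60 and 55, and without the low-count filter 86 and 37. Nkg7 differed by 6.22, Lgals3 by 6.08, Klrg1 by -5.15 and Tnfrsf9 by -3.13 on the log2 scale, and these 4 calls held in every omission. Serpina3f, at 0 in V3 WT mice, also held, with a fitted difference of 9.53 that depends on the prior count. The count was 71 without V3 ∆Foxp3 replicate 2 or V3 WT replicate 1 and 61 without V3 WT replicate 2. Tnfrsf9 thus fell in both settings and fell more in the V3 mice, whose WT samples were also of another age and host. Its V3 ∆Foxp3 level rests on few molecules. The V2 log2 fold change of -2.82 lay nearer the -2.23 of the chimeras, and the V2 and chimera effects were not tested against each other.

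V2 shares no sample with V3 or the chimeras, nor V3 with the chimeras, so calls can be compared gene by gene. Of 2812 genes tested in both, 324 passed in V2 and 180 in V3, and 112 passed in both, which is 34.6% of the V2 calls and 62.2% of the V3 calls. Of these, 54 were higher and 56 lower in ∆Foxp3 activated Treg in both, and 2 were opposite. Between V3 and the chimeras 14 were shared, 6.80% of the V3 calls and 20.9% of the chimera calls, with 3 higher, 8 lower and 3 opposite in direction. Between V2 and the chimeras 36 were shared, 11.1% of the V2 calls and 56.2% of the chimera calls, with 3 higher, 7 lower and 26 opposite in direction. Among the opposite genes were S100a4 and the ribosomal protein genes Rplp1 and Rps24. Ribosomal protein genes held 35 of the lower V2 calls and 37 of the higher chimera calls. How many of the 26 opposite genes they make up was not counted.

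Genes of mitosis were read in some cells. At least 2 mitotic genes had a UMI in 10 and 3 of the V2 ∆Foxp3 activated Treg, against 0 and 1 of the V2 WT ones, and in 7 and 12 of the V3 ∆Foxp3 ones, against 3 and 0 of the V3 WT ones. In the chimeras they had one in 1, 4 and 3 of the ∆Foxp3 cells, against 2, 6 and 1 of the WT cells. The summed level of the mitotic genes in V3 ∆Foxp3 samples was 124 and 1350 CPM in activated Treg and 350 and 1099 CPM in resting Tconv, against 27.3 and 34.1 CPM in resting Tconv of V3 WT samples. In V2 ∆Foxp3 samples it was 169 and 127 CPM in activated Treg and 122 and 91.1 CPM in resting Tconv, against 21.1 and 16.9 CPM in resting Tconv of V2 WT samples. In WT activated Treg the summed level was 18.3 to 60.8 CPM in V2 and 59.8 to 176 CPM in V3. Whether the ∆Foxp3 activated Treg were dividing, and the part of shared RNA, were not tested. Of the proliferation list, 1 of 8 tested genes was higher and 2 lower in V2, 1 of 11 was higher and 0 lower in V3, and 0 of 11 passed in the chimeras. The interferon response list held 5 higher and 1 lower of 24 in V2, 2 higher and 4 lower of 27 in V3 and 0 higher and 1 lower of 27 in the chimeras. Among its genes, Ifi27l2a had 573 and 629 CPM in V3 ∆Foxp3 activated Treg, against 5622 and 2932 CPM in V3 WT activated Treg (log2 fold change -2.83, edgeR adjusted p = 2.06e-11), and did not pass in V2 (edgeR adjusted p = 0.12) or in the chimeras (0.444).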

How the data were processed

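UMI counts per gene and cell were deposited by the authors as 1 matrix of 33006 genes, 17739 of them with a UMI. Cell Ranger 3.0.2 and the mm10 build are named, per the submitters' processing notes; the assignment of reads to Foxp3, GFP and Cre, and any use of strand, are not given in the sources used here. The mitochondrial percent per cell, the Scrublet doublet score (at most 0.293, no cell removed) and the other values of the metadata, such as cluster labels and sample names, are the authors' deposited columns, of which 11 of 59 were used. Per the file headers the clusters come from a canonical correlation analysis.

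Counts of the members were summed per sample with at least 10 cells. These were fitted by edgeR 4.0.16 under R 4.3.3, after TMM scaling and a low-count filter (filterByExpr, minimum 10), and called by the quasi-likelihood F test at a Benjamini-Hochberg adjusted p under 0.05. V2 had its own fit, and V3 mice, chimeras and sorted Treg shared another. Differences between clusters used both sums of each sample with the sample as a block. The Foxp3 row was left out, since it holds Foxp3 plus GFP in 100% of WT cells and Foxp3 plus Cre in 100% of ∆Foxp3 cells. Shares were compared by edgeR from cell numbers per sample. Standard errors are the absolute log2 fold change over the root of F. Where a group had 0 counts, 3 counts in all stand in for it. Fitted folds of genes near 0 depend on the prior count of the fit, left at edgeR's default, and are no bound. A prior count of 2 was used only for the log2 differences between clusters. Intervals cover counting error only. Sums and figures were made in Python 3.11.15 (pandas 2.3.3, scipy 1.17.1, numpy 2.4.6, matplotlib 3.10.9), alternatives also with DESeq2 1.42.0 and limma 3.58.1, and the tests were checked on simulated data.

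Named genes are the 10 highest and 10 lowest fold changes among called genes of at least 20 CPM with no overlap between groups, the 5 markers, up to 4 genes per list by p, and the 5 highest and 5 lowest of each difference between effects. The 27 lists hold 479 symbols, of which 469 matched by name, 8 by an older name and 2 not at all. The cells, lists and tests were chosen with earlier results of these data known.

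The chimera samples of a number come from 1 recipient mouse, with correlations of their deviations of 0.122, 0.160 and 0.050.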

Additional observations from a re-analysis of the deposited data

Results flagged for a closer look

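The ∆Foxp3 effect in activated Treg differed from that in activated Tconv of the same samples for 150 genes in V2, 18 in V3 and 3 in the chimeras, and from that in resting Treg for 109, 10 and 2 genes, by tests of the difference itself. It differed between V3 mice and chimeras for 113 genes. On the log2 scale the difference, V3 mice minus chimeras, was 9.53 for Serpina3f, 6.92 for Stat4, 6.22 for Nkg7, 6.08 for Lgals3 and 4.78 for Plp2, a membrane protein. It was -7.02 for Ttc28, -6.35 for Lrrc32, -5.15 for Klrg1, -3.88 for Sesn1, -3.86 for Epcam and -3.13 for Tnfrsf9. Serpina3f, Stat4, Ttc28 and Lrrc32 had 0 counts in 1 of the V3 groups, so their values depend on the prior count. Over the 10 omissions of 1 sample the call was lost in 6 for Sesn1 (-6.43 to -3.10), 5 for Plp2 (4.06 to 8.34), 3 for Lrrc32 (-7.12 to -5.33), 2 each for Stat4 (6.42 to 7.08) and Epcam (-4.45 to -2.90) and 1 for Ttc28 (-7.84 to -5.88), and in 0 for the other genes named. The share of activated Treg among CD4 cells was 3.34 percentage points higher in ∆Foxp3 than in WT samples of V2 and lower by the same measure in the chimeras, at -2.73 points. The difference between these 2 opposite shares was not tested.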

How the results depend on the processing

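With 2 or 3 samples a group and 13 to 104 cells a sample, low genes rest on few molecules, and the counts of called genes moved with tool and sample. DESeq2 called 89 genes in V2 and 117 in V3, 25 and 10 against activated Tconv in V2 and V3, 23 and 1 against resting Treg in V2 and the chimeras, and 67 for V3 mice minus chimeras. Library size scaling gave 31 in the chimeras, and 18 and 0 against resting Treg in V3 and the chimeras. Without the low-count filter, 38 and 8 genes passed against activated Tconv in V3 and the chimeras, and 58 against resting Treg in V2. Fitting only the groups compared gave 137 in V3 and 21 in the chimeras, the 10x channel as a term gave 43 in the chimeras, and a minimum of 20 cells gave 1 against resting Treg there. Over the omissions of 1 sample the counts were 277 to 316 in V2, 93 to 152 in V3 and 11 to 94 in the chimeras; 37 to 104, 23 to 61 and 2 to 9 against activated Tconv; 34 to 92, 0 to 47 and 0 to 1 against resting Treg; and 61 to 120 for V3 mice minus chimeras. The log2 ratio of shares was 1.55 to 2.39 in V2, -0.051 to 1.45 in V3 and -2.01 to -1.19 in the chimeras. By limma on arcsine square roots the share differences were 0.106 in V2 and -0.0848 in the chimeras and did not pass. Of Treg-annotated cells the chimera log2 ratio was 0.092. The cause of these changes was not tested.

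The replicate block gave 482 genes in V2, 227 in V3 and 87 in the chimeras, and log2 ratios of shares of 1.96, 0.70 and -1.49. Only the chimera numbers mark a shared animal, where 66 of 67 calls were kept under the block, no named gene lost its call and Ifng newly passed. The V2 and V3 numbers are shared without one, with correlations of deviations of 0.050 and -0.026.

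Of 2945 values of named genes under other settings, 2565 kept their direction and side of the threshold, 361 no longer passed, 9 newly passed and 10 changed sign, all of the last in results that did not pass. These were V3 Ikzf2 without the filter (0.040) or WT replicate 2 (omissions -0.26 to 0.090), V3 Gzmb without WT replicate 2 (-0.96 to 9.20), chimera Serpina3f with library size (-0.024) or without ∆Foxp3 replicate 3 or WT replicate 3 (-0.40 to 0.39), chimera Ccl5 without mitotic cells (-0.28), ∆Foxp3 replicate 2 or WT replicate 3 (-1.35 to 0.69), and the chimera difference of Tnfrsf9 from activated Tconv without ∆Foxp3 replicate 2 (-1.08 to 0.13). The 3 alternatives chosen after seeing the data, leaving out cells with defining markers of other cells, cells with a shared barcode or the NKT cluster, moved no count by over 1.5 times. Leaving out all cells with any listed marker of other types gave no value, as the lists mark 72.1% to 100% of members, and neither did a minimum of 20 cells in V3.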
